A study of Mus musculus with 9 samples.

Results

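The 9 genes described here encode the structural proteins of the synaptonemal complex and the HORMA domain proteins of the meiotic chromosome axis. They are Sycp1, Sycp2, Sycp3, Syce1, Syce2, Syce3, Tex12, Hormad1 and Hormad2. They were chosen by symbol through the NCBI gene identifiers of the deposited tables, and all 9 were found among 21877 NCBI genes and 50493 features in all. RNA levels were measured in 3 germ cell types from the testis of WT mice, with 3 libraries each. PAC denotes spermatocytes at pachytene, RS round spermatids after meiosis, and ES later spermatids that are elongating (labelled elongation spermatids). Ribosomal RNA had been depleted from total RNA, and no treatment, time point or other allele is given. No source used here gives strain, age, the way the cells were isolated or the number of animals behind a library. Where replicates came from is given only as biological replicates, so p-values measure the spread between these libraries. The comparisons ask how RNA of these synaptonemal complex and axis genes differed between meiotic and post-meiotic germ cells.

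The synaptonemal complex is a protein ladder that holds paired homologous chromosomes together in meiotic prophase. Its sides, the axial or lateral elements, contain SYCP2 and SYCP3. The transverse filament protein SYCP1 spans from side to side, and the central element proteins SYCE1, SYCE2, SYCE3 and TEX12 join and extend the SYCP1 filaments in the middle. HORMAD1 and HORMAD2 sit on axes that have not synapsed, are depleted from synapsed axes by the ATPase TRIP13, and take part in DNA break formation and in the checkpoint that watches for unsynapsed chromosomes. The complex is present at pachytene and is gone by the time round spermatids form. These libraries measured RNA, not protein.

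Total estimated counts per library ran from 22910156 to 33801617, and levels are given as CPM (each count relative to the library's total) after scaling by TMM factors, which were lowest for ES replicate 1 (0.758) and highest for RS replicate 1 (1.1). Marker lists went with the labels in part. Of 9 pachytene spermatocyte markers, 6 were lower in RS than in PAC and 1 was higher. Of 9 round spermatid markers, 8 were higher in RS than in PAC, and all 10 elongating spermatid markers were higher in ES than in RS. Of all features tested, 38.2% were higher and 34.2% lower in RS than in PAC. In ES against RS, 24.5% of them were higher and 22.1% lower. Markers of somatic testis cells also differed between the cell types. The summed level of 11 Sertoli cell markers was 40.7 to 87.2 CPM in PAC, 8.67 to 9.67 CPM in RS, where Amh was at 0, and 268 to 304 CPM in ES. The summed level of 7 Leydig cell markers was 91.6 to 124 CPM in PAC, 1.86 to 2.19 CPM in RS and 18.6 to 24.5 CPM in ES. For 8 macrophage and blood markers the sums were 4.53 to 5.47, 15.5 to 17.2 and 133 to 209 CPM. The part of these other cells in the results below was not tested.

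The members lie on 8 chromosomes of the build GRCm38.p6. The axis genes are Sycp3 (NCBI gene 20962) at chr10:88459587-88473236 on the plus strand and Sycp2 (320558) at chr2:178345295-178407776 on the minus strand. Sycp1 (20957) is at chr3:102818499-102936100 on the minus strand. The central element genes are Syce1 (74075) at chr7:140777229-140787854, minus strand, Syce2 (71846) at chr8:84872111-84887446, plus strand, Syce3 (75459) at chr15:89390174-89410503, minus strand, and Tex12 (66654) at chr9:50557148-50561268, minus strand. Hormad1 (67981) is at chr3:95559677-95587863 on the plus strand and Hormad2 (75828) at chr11:4345801-4441198 on the minus strand.

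The sequence just before the RNA start is shown for Sycp3, Hormad1, Tex12 and Sycp1, which were lower in RS than in PAC, and for Syce2 and Syce3, which were higher. Sycp2 and Hormad2, which were also lower, and Syce1, which was not called, were searched but are not printed. The 250 bases before each annotated RNA start (RefSeq, GRCm38.p6) were searched on both strands for 4 letter patterns fixed in a list, CACGTG (an E-box), GGCGGGA (an E2F-type site), TGACGTCA (a cAMP response element) and CNGTTG (a MYB-type site). None of the 4 patterns holds another. In the stretches below, the gene's strand is written 5′ to 3′, capitals mark the bases of a match, and bases within annotated exons were left out. Sycp3 is shown at chr10:88459419-88459568 (plus), Hormad1 at chr3:95559527-95559676 (plus), Tex12 at chr9:50561326-50561475 (minus), Sycp1 at chr3:102936101-102936250 (minus), Syce2 at chr8:84871961-84872110 (plus) and Syce3 at chr15:89410504-89410653 (minus).
Sycp3: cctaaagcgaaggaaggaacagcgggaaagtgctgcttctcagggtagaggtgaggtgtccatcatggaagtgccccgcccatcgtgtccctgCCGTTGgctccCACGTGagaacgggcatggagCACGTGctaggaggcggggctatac
Hormad1: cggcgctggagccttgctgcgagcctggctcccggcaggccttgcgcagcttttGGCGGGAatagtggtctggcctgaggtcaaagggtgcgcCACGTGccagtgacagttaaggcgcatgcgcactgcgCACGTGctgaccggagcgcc
Tex12: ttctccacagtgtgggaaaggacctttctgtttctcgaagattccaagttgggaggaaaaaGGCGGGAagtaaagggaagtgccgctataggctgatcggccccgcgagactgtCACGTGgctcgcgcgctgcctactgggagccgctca
Sycp1: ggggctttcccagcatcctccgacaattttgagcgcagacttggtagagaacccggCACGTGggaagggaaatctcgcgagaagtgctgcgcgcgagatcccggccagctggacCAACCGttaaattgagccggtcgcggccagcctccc
Syce2: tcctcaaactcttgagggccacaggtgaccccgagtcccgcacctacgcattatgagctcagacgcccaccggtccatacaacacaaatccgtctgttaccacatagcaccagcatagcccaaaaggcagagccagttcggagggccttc
Syce3: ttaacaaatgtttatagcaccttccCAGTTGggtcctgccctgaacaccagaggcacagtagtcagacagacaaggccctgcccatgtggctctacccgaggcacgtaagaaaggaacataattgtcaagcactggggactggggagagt

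CACGTG was found in the windows of 5 of the 9 members (55.6%), namely Sycp1, Sycp3, Syce2, Tex12 and Hormad1. Of 27025 genes with such a window in the annotation, 6.86% matched, a gene counting once if any of its windows did. Of 32851 single windows of that length, 1978 matched (6.02%). The 9 members had 12 windows, so genes with more than 1 start had more chances. Sycp3 and Hormad1 each held 2 copies. Sycp2 and Hormad2, which were lower in RS than in PAC, had no CACGTG, while Syce2, which was higher, had it. GGCGGGA was found for Syce2, Tex12 and Hormad1, 3 of 9 (33.3%) against 11% of genes and 9.75% of windows. CNGTTG was found for Sycp1, Sycp3, Syce3 and Hormad2, 4 of 9 (44.4%) against 32.3% of genes and 29.3% of windows, and TGACGTCA for 0 of 9 against 1.77% and 1.55%. In Syce2 the matches lie before a second annotated start at position 84872258, downstream of the first start, so the stretch printed for it has none. A match is a description of letters, not of a bound site, and no binding was measured in these libraries.

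In RS against PAC, 6 of the 9 members were lower, 2 were higher and 1 (Syce1) was not called by edgeR (quasi-likelihood test, p adjusted by Benjamini-Hochberg over 26030 features, threshold 0.05). Of all features tested, 34.2% were lower and 38.2% higher. The members' median log2 difference was -1.30, beside 0.11 for all features. In length classes of equal size, protein-coding genes had medians of 0.06, -0.35, -0.60 and -0.84 from shortest to longest. The 3 PAC libraries did not overlap the 3 RS libraries for any of the 9 genes, which was also so for 79.1% of all features tested. Tex12 fell most, 12.9-fold, and Syce2 rose most, 2.84-fold. In bulk RNA, fewer cells of a type and less RNA per cell cannot be told apart. The calls of 5 genes as lower (Sycp2, Sycp3, Tex12, Hormad1, Hormad2) and of Syce2 and Syce3 as higher held in all 21 settings run, the main one included.

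In ES against RS, 4 members were higher (Syce2, Tex12, Hormad1, Hormad2), 0 were lower and 5 were not called by edgeR, where 24.5% of all features were higher and 22.1% lower. At an unadjusted p below 0.05 the counts were 4 higher and 1 lower, the latter Syce1, and DESeq2 called 5 higher and 0 lower. The median log2 difference was 0.33 for the members and 0.05 for all features. In the same 4 length classes of protein-coding genes, the medians were -0.11, 0.03, 0.11 and 0.36 from shortest to longest. This comparison depends on scaling more than the others: of all calls, 52.6% were higher with TMM, 34.4% with total counts alone and 61.1% with DESeq2, and with total counts 3 members were higher and 2 (Syce1, Syce3) lower. Leaving out ES replicate 1 gave 6 members higher and 2 lower.

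In ES against PAC, 2 members were higher (Syce2, Syce3), 6 were lower and Hormad2 was not called, where 30.6% of all features were higher and 33.7% lower. The median log2 difference was -0.69 for the members and -0.09 for all features. In the same 4 length classes of protein-coding genes, the medians were -0.20, -0.50, -0.64 and -0.56 from shortest to longest. Of all calls, 47.6% were higher with TMM and 57.9% with upper-quartile factors, under which 4 members were lower (Sycp2, Sycp3, Tex12, Hormad1) and 2 higher. With total counts alone 39.6% of calls were higher, and 7 members were lower and 1 higher. The 3 comparisons share their libraries, so each gene's values are given for all of them.

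**Figure D1:**
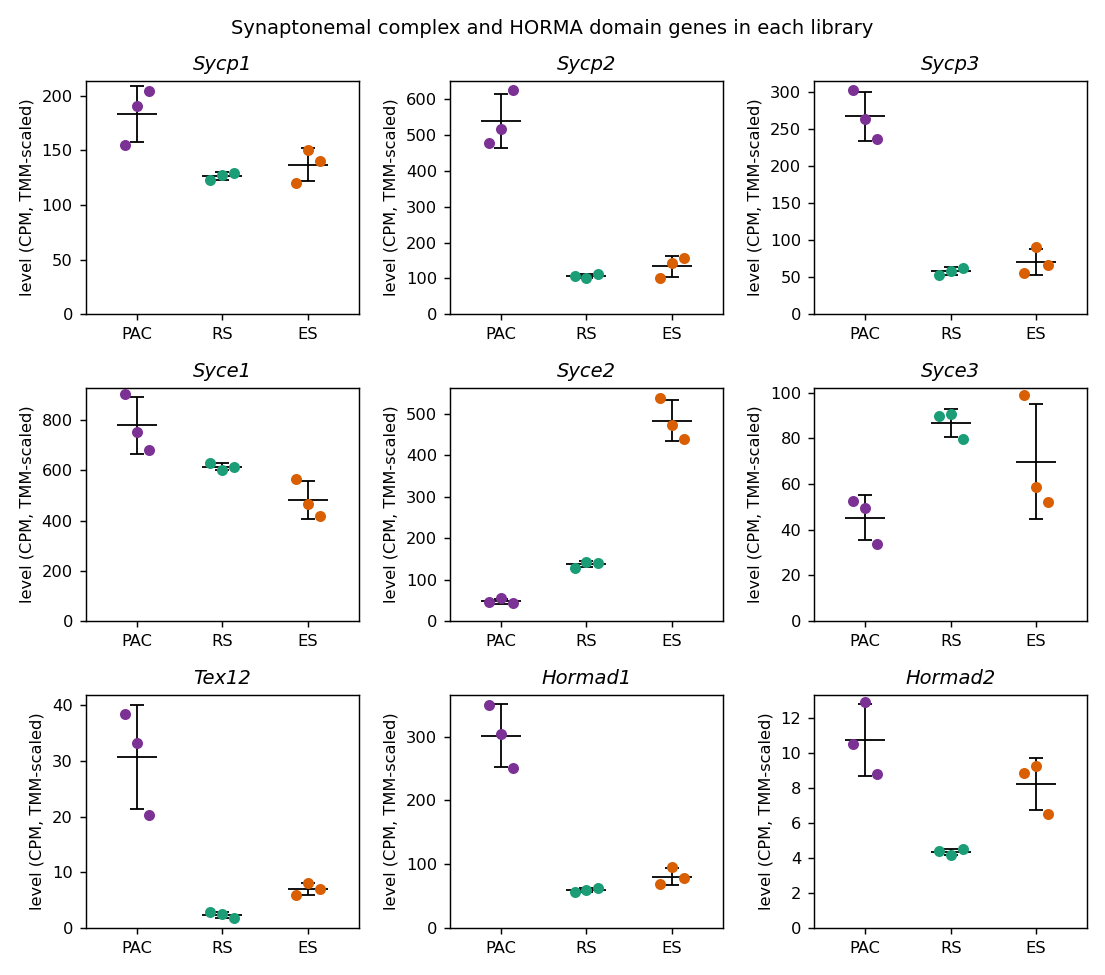
Level of each member in every library, in CPM after TMM scaling on a linear axis from 0 for each gene, with 3 points per cell type, a line at the mean and bars of 1 SD. The PAC points lie above the RS points for 7 of the 9 genes and below them for Syce2 and Syce3.

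Sycp2 and Sycp3, the axial and lateral element genes, were both lower in RS and ES than in PAC. The Sycp3 level was 302, 263 and 237 CPM in the 3 PAC libraries, 52.9, 58.9 and 62.8 CPM in RS, and 55.3, 90.2 and 67.0 CPM in ES. All PAC values stood far above the others, and RS and ES overlapped. Sycp3 was 4.59-fold lower in RS than in PAC (log2 difference -2.20, SE 0.19, adjusted p = 1.88e-06 by edgeR) and 3.77-fold lower in ES than in PAC (-1.92, SE 0.18, adjusted p = 4.99e-06). Sycp2, whose product binds SYCP3 and is needed for it to join the axis, stood at 477, 517 and 625 CPM in PAC, 108, 100.1 and 112 CPM in RS, and 102, 144 and 158 CPM in ES. Again the PAC libraries were all higher, with RS and ES overlapping. Sycp2 was 5.05-fold lower in RS (log2 difference -2.34, SE 0.18, adjusted p = 1e-06) and 4.01-fold lower in ES than in PAC (-2.00, SE 0.18, adjusted p = 2.82e-06). Between ES and RS neither passed (0.33, adjusted p = 0.132 for Sycp2 and 0.28, adjusted p = 0.215 for Sycp3, SE 0.17 and 0.18), but both passed as higher in ES when ES replicate 1 was left out (0.50 and 0.43). With total counts alone the Sycp3 difference was -0.03, of the opposite sign.

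Sycp1, the transverse filament gene, changed least among the genes that fell. Its level was 155, 190.4 and 205 CPM in PAC, 122.5, 128 and 129 CPM in RS, and 120, 150.3 and 141 CPM in ES. The 3 PAC libraries were higher than all others, by a small margin from ES. Sycp1 was 1.45-fold lower in RS than in PAC (log2 difference -0.54, SE 0.14, adjusted p = 0.0052 by edgeR) and 1.34-fold lower in ES than in PAC (-0.42, SE 0.14, adjusted p = 0.0209). Both calls were lost with upper-quartile factors (-0.22 and -0.11) and with protein-coding genes alone (-0.15 and -0.18, an alternative added after seeing the data), and the first also in limma on log2(FPKM + 1) with no filter (-0.41). The ES call was also lost with only the 2 cell types in the fit (-0.22) and without PAC replicate 2, PAC replicate 3 or ES replicate 1 (-0.41, -0.35 and -0.33). Between ES and RS the difference was 0.12 (SE 0.14, adjusted p = 0.531), and it was below 0 with total counts alone, with FPKM and with protein-coding genes alone. Protein-coding genes in the length class of Sycp1 had medians of -0.60 in RS against PAC and -0.64 in ES against PAC. Sycp1 fell no more than that class in either comparison.

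The central element genes went different ways. Syce2 and Tex12, whose products bind each other and assemble into fibres along the central element, moved in opposite directions between PAC and RS. Syce2 was at 45.3, 55.3 and 44.0 CPM in PAC, 129, 141 and 140.2 CPM in RS, and 538, 472 and 440 CPM in ES. The 3 cell types did not overlap, and the order was PAC, RS, ES from low to high. Syce2 rose 2.84-fold from PAC to RS (log2 difference 1.5, SE 0.14, adjusted p = 3.41e-06 by edgeR), 3.53-fold from RS to ES (1.82, SE 0.14, adjusted p = 4.27e-06) and further from PAC to ES (3.33, SE 0.15, adjusted p = 3.25e-08). All 3 calls held in every setting run.

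Tex12 was at 38.4, 33.3 and 20.3 CPM in PAC, 2.86, 2.43 and 1.84 CPM in RS, and 5.84, 8.13 and 6.96 CPM in ES. The cell types again did not overlap, here with RS lowest and ES between RS and PAC. Tex12 was 12.9-fold lower in RS than in PAC (log2 difference -3.69, SE 0.27, adjusted p = 8.33e-07 by edgeR), 2.93-fold higher in ES than in RS (1.55, SE 0.27, adjusted p = 0.000619) and 4.39-fold lower in ES than in PAC (-2.13, SE 0.26, adjusted p = 2.3e-05). Those calls also held in every setting run.

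Syce1 and Syce3, whose products bind each other and help load the other central element proteins onto SYCP1, kept high levels after PAC. Syce1 was at 903, 752 and 681 CPM in PAC, 629, 600 and 614 CPM in RS, and 563, 465 and 416 CPM in ES. The ranges stepped down without overlap, but the steps were small. Its difference was -0.34 on the log2 scale between RS and PAC (SE 0.15, adjusted p = 0.0567 by edgeR) and -0.35 between ES and RS (SE 0.15, adjusted p = 0.0736). Neither passed, and both are near the threshold: the first passed with DESeq2 (-0.40), with only the 2 cell types in the fit (-0.34), and when PAC replicate 3 (-0.43), ES replicate 1 (-0.34) or ES replicate 3 (-0.34) was left out. The second passed with total counts alone (-0.70), with FPKM (-0.69 to -0.70), with protein-coding genes alone (-0.48), and without PAC replicate 1, PAC replicate 3 or ES replicate 1 (-0.37, -0.37 and -0.48). Both also passed with a term for replicate number in the fit (-0.33 and -0.36). With protein-coding genes alone the RS against PAC difference was 0.05, of the opposite sign. Syce1 was 1.62-fold lower in ES than in PAC (-0.69, SE 0.15, adjusted p = 0.00162), a call lost with upper-quartile factors (-0.39) and with only the 2 cell types in the fit (-0.50).

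Syce3 was at 52.4, 49.3 and 33.9 CPM in PAC, 89.7, 90.6 and 79.6 CPM in RS, and 98.8, 58.6 and 52.0 CPM in ES. The RS libraries were all above PAC, and the ES libraries ran from the PAC range to above RS. Syce3 rose 1.92-fold from PAC to RS (log2 difference 0.94, SE 0.24, adjusted p = 0.0045 by edgeR). It was 1.54-fold higher in ES than in PAC (0.63, SE 0.24, adjusted p = 0.0379), but ES replicate 1 decided much of that value: without it the difference was 0.29 and not called. That call was also lost without PAC replicate 2 (0.68), PAC replicate 3 (0.43) or any RS library (0.61 to 0.62), with total counts alone (0.30) and with FPKM (0.29). Between ES and RS the difference was -0.31 (SE 0.24, adjusted p = 0.305), and it passed as lower in ES without ES replicate 1 (-0.65), with total counts alone (-0.68) and with FPKM (-0.71 to -0.72).

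Hormad1 and Hormad2, the HORMA domain genes of the axis, were both lower in RS than in PAC and higher in ES than in RS. Hormad1 was at 350, 305 and 251 CPM in PAC, 57.1, 60.1 and 63.1 CPM in RS, and 68.4, 95.1 and 78.5 CPM in ES. No ranges overlapped, with ES just above RS. Hormad1 was 5.02-fold lower in RS than in PAC (log2 difference -2.33, SE 0.17, adjusted p = 6.63e-07 by edgeR) and 3.74-fold lower in ES than in PAC (-1.90, SE 0.17, adjusted p = 2.46e-06). From RS to ES it was 1.34-fold higher (0.43, SE 0.16, adjusted p = 0.0474). That call was lost in 14 of 20 alternatives, among them total counts alone (0.11), FPKM (0.18 to 0.19), protein-coding genes alone (0.28), and without PAC replicate 2 (0.41), RS replicate 1, 2 or 3 (0.38, 0.41 and 0.45), ES replicate 2 (0.29) or ES replicate 3 (0.44).

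Hormad2, which acts with HORMAD1 in the checkpoint for unsynapsed axes, was the least abundant member per length in PAC. It stood at 10.5, 12.9 and 8.76 CPM in PAC, 4.37, 4.15 and 4.50 CPM in RS, and 8.86, 9.24 and 6.48 CPM in ES. RS was below all other libraries, and PAC and ES overlapped. Hormad2 was 2.47-fold lower in RS than in PAC (log2 difference -1.30, SE 0.20, adjusted p = 0.00016 by edgeR) and 1.89-fold higher in ES than in RS (0.92, SE 0.21, adjusted p = 0.0035). The latter missed the threshold in limma on log2 FPKM (0.45 to 0.56, adjusted p = 0.0529 to 0.0834). Between ES and PAC the difference was -0.39 (SE 0.20, adjusted p = 0.112), and it passed as lower without PAC replicate 3 (-0.53), with total counts alone (-0.68) and in limma on filtered FPKM (-0.46 to -0.54).

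**Figure D2:**
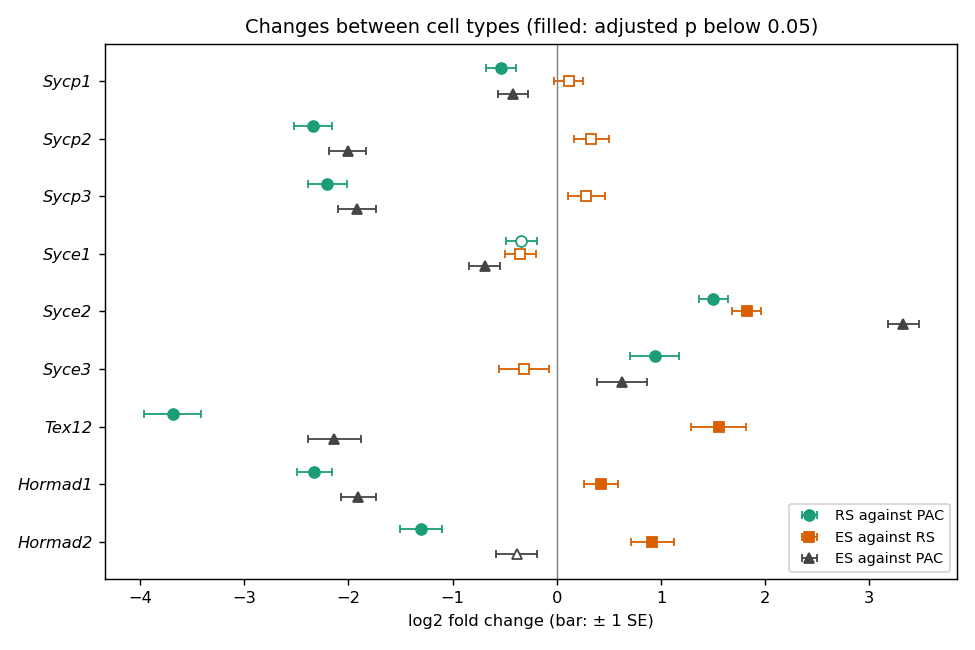
Log2 difference of each member in the 3 comparisons by edgeR, with bars of 1 SE and filled points for an adjusted p below 0.05. Tex12 lies lowest in RS against PAC at -3.69, and Syce2 lies highest in ES against PAC at 3.33.

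Pachytene markers went different ways between RS and ES. Of 9 pachytene spermatocyte markers, 4 were higher in ES than in RS by edgeR, 1 was lower and the median log2 difference was 0.33. The PIWI gene Piwil1 was at 163 ± 35.8 CPM in PAC, 7.26 ± 1.35 in RS and 31.1 ± 6.86 in ES (SD, n = 3), and Tex101 at 251 ± 52.3, 12.4 ± 2.56 and 46.8 ± 4.19 CPM. Tdrd1 and Mov10l1 were the other 2 that rose (log2 differences 2.04 and 0.90). Ccna1 fell from RS to ES (-0.93, adjusted p = 0.000157), at 305 ± 40.7, 337 ± 7.92 and 177 ± 10.5 CPM. The other 4 did not pass, at 0.33 for Mybl1, 0.01 for Adam3, -0.15 for Ldhc and -0.33 for Hspa2. Piwil1 and Tex101 were picked for their values after those were seen. Summed over the 9 markers, levels were 5656 to 6043 CPM in PAC, 5328 to 5622 in RS and 4815 to 5569 in ES, and none of the 9 was at 0. Also higher in ES than in RS were 3 of 8 leptotene and zygotene markers (2 lower), 6 of 11 spermatogonia markers (1 lower), 10 of 10 Sertoli markers tested, 7 of 7 Leydig markers, 2 of 6 peritubular and vascular markers and 4 of 7 macrophage and blood markers. Over all features, 24.5% were higher and 22.1% lower in ES than in RS, and the counts of every marker list are to be read against these shares. The part of RNA from other cells in the higher ES values of Syce2, Tex12, Hormad1 and Hormad2 was not tested.

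Levels of different genes were compared per length, on the authors' FPKM scale, which is not TMM-scaled. In PAC, Syce1 was highest at 558 ± 73.3 FPKM (SD, n = 3), followed by Sycp3 at 232 ± 36.6, Hormad1 at 181 ± 29.8, Sycp2 at 117 ± 16.9 and Syce3 at 106 ± 23.2 FPKM. Sycp1 at 64.5 ± 10.1, Syce2 at 54.5 ± 8.26 and Tex12 at 47.4 ± 14.2 FPKM came next and overlapped, and Hormad2 was lowest at 6.67 ± 1.51 FPKM. Sycp3 and Hormad1 overlapped in range, as did Sycp2 and Syce3. Among 21405 protein-coding genes, Syce1 had a median rank of 109 and Sycp3 of 343.

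In RS the order changed. Syce1 was at 458 ± 14.2 FPKM, Syce3 at 209 ± 14.9 and Syce2 at 162 ± 8.04 FPKM (SD, n = 3), without overlap. Sycp3 at 51.0 ± 3.31 and Sycp1 at 47.9 ± 0.807 FPKM overlapped, followed by Hormad1 at 33.7 ± 1.40 and Sycp2 at 24.4 ± 1.64 FPKM. Tex12 at 3.83 ± 0.831 and Hormad2 at 3.02 ± 0.0777 FPKM were lowest and overlapped. In ES, Syce2 was highest at 456 ± 18.7 FPKM, above Syce1 at 283 ± 18.0 and Syce3 at 129 ± 30.6 FPKM. Next were Sycp3 at 53.5 ± 18.2, Sycp1 at 42.6 ± 8.33, Hormad1 at 39.3 ± 10.3 and Sycp2 at 25.2 ± 7.27 FPKM, of which each overlapped its neighbour. Tex12 was at 9.04 ± 2.30 and Hormad2 at 4.56 ± 0.984 FPKM. The median rank of Syce2 went from 1935 in PAC to 727 in RS and 194 in ES.

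Of the members' summed FPKM, Syce2 and Syce3 took a larger share in RS and ES than in PAC, and Sycp3, Sycp2, Hormad1 and Tex12 a smaller one. The sum was 1490, 1411 and 1196 FPKM in the PAC libraries, 1004, 992 and 983 in RS, and 1031, 1108 and 991 in ES. Syce2 made up 4.01% ± 0.601 of it in PAC, 16.3% ± 0.960 in RS and 43.7% ± 0.884 in ES (SD, n = 3). Syce1 made up 40.8% ± 1.56, 46.1% ± 1.19 and 27.2% ± 1.10. Syce3 made up 7.67% ± 0.952 in PAC, 21.1% ± 1.33 in RS and 12.4% ± 3.01 in ES. The share of Sycp3 went from 16.9% ± 0.846 in PAC to 5.14% ± 0.387 in RS and 5.10% ± 1.51 in ES, and that of Hormad1 from 13.2% ± 0.755 to 3.40% ± 0.176 and 3.75% ± 0.872. Sycp2 went from 8.74% ± 2.30 to 2.46% ± 0.172 and 2.42% ± 0.725, and the central element gene Tex12 from 3.42% ± 0.703 to 0.385% ± 0.0796 and 0.864% ± 0.198. For Sycp1 the shares were 4.81% ± 1.20, 4.82% ± 0.0470 and 4.08% ± 0.724. These shares are a description of the deposited values, with no test.

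**Figure D3:**
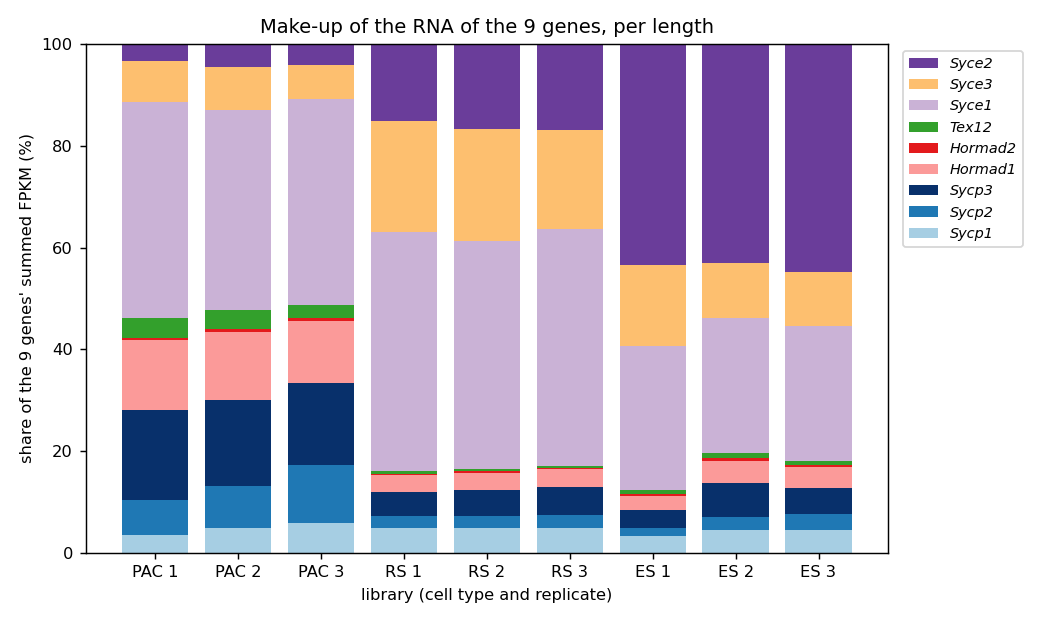
Share of the members' summed FPKM taken by each gene, in percent, with 1 stacked bar per library. Syce1 takes the largest share in every PAC and RS library, and Syce2 takes 43.1 to 44.8% in each ES library.

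Ratios of FPKM within a library do not depend on library scaling. They were compared for genes of partner proteins, and for Sycp1 over Sycp3, which are not such a pair. Syce2 over Tex12 was 0.860, 1.21 and 1.58 in PAC, 32.9, 42.8 and 55.8 in RS, and 68.0, 42.9 and 47.1 in ES. All RS and ES values lay far above PAC, and RS and ES overlapped. Sycp2 over Sycp3 was 0.382, 0.483 and 0.701 in PAC, 0.524, 0.439 and 0.475 in RS, and 0.459, 0.388 and 0.597 in ES. That ratio overlapped between all 3 cell types, while both genes fell. By the length that count and FPKM imply, Sycp2 is 10.6 and Sycp3 2.68 times Syce3. PAC replicate 3 differed from PAC replicate 1 by 0.39 for Sycp2 and -0.35 for Sycp3 on the log2 scale. The part of gene length in these ratios was not tested. Syce1 over Syce3 was 5.28, 4.69 and 6.16 in PAC, 2.17, 2.04 and 2.38 in RS, and 1.79, 2.47 and 2.50 in ES, so PAC stood apart from both. Hormad1 over Hormad2 was 31.6, 23 and 28 in PAC, 10.6, 11.7 and 11.3 in RS, and 6.56, 8.70 and 10.9 in ES. Sycp1 over Sycp3, the transverse filament against the axis, rose from 0.200, 0.292 and 0.370 in PAC to 1.02, 0.940 and 0.868 in RS, and was 0.909, 0.682 and 0.877 in ES. Syce1 over Sycp1 was 12.0, 7.97 and 6.83 in PAC, 9.77, 9.20 and 9.74 in RS, and 8.77, 5.92 and 5.88 in ES. PAC overlapped both other cell types there. Syce3 over Sycp1 was 2.26, 1.70 and 1.11 in PAC, 4.51, 4.51 and 4.09 in RS, and 4.90, 2.40 and 2.36 in ES. No test was made of these ratios.

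**Figure D4:**
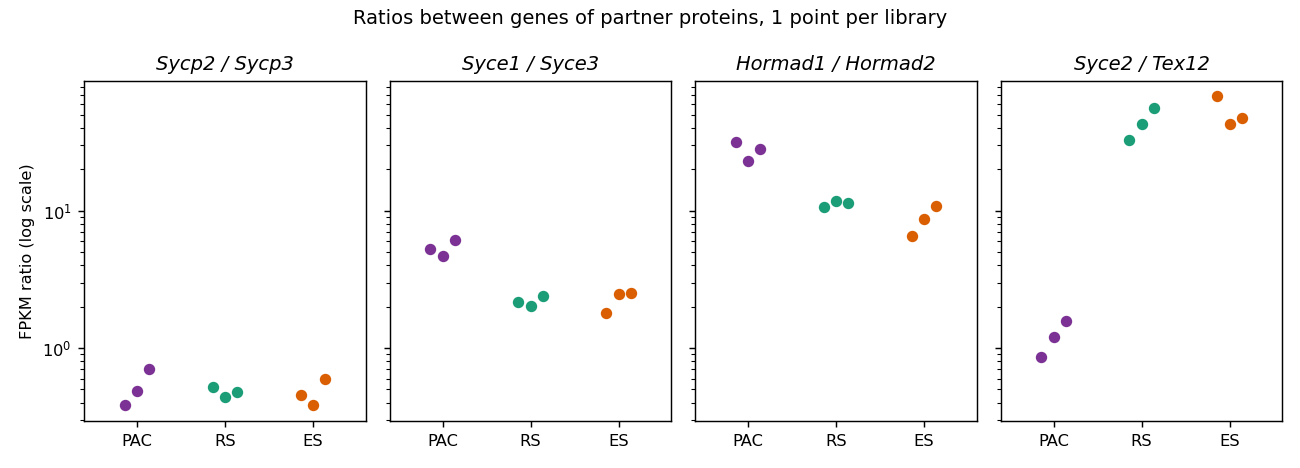
FPKM ratios of 4 pairs of partner genes in every library, on a log axis, with 3 points per cell type. Syce2 over Tex12 lies near 1 in PAC (mean 1.22) and at means of 43.8 in RS and 52.7 in ES, while Sycp2 over Sycp3 keeps a mean between 0.479 and 0.522.

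Partners of the complex outside the 9 members were described by 6 lists, which overlap the marker lists in a few genes (Hspa2, Ccna1, Spo11, Meiob, Rec8). Of 14 genes for central element and recombination proteins that work on the complex, 9 were lower in RS than in PAC by edgeR. Of the others, 0 were higher and 5 were not called, and the median log2 difference of the list was -1.24. Over all features, 34.2% were lower and 38.2% higher. In ES against RS, 6 of the 14 were higher and 2 lower (median 0.27), and in ES against PAC 11 were lower and 3 were not called (median -1.11). Psma8, a testis proteasome subunit, was at 297 ± 58.6 CPM in PAC, 36.0 ± 1.24 in RS and 62.3 ± 10.8 in ES (SD, n = 3; RS against PAC -3.05, adjusted p = 1.98e-07). Hspa2, a chaperone of spermatocytes, was at 666 ± 102, 374 ± 7.37 and 298 ± 104 CPM (-0.83, adjusted p = 0.00618). Brme1 (4930432K21Rik), a meiotic recombination factor, was at 200 ± 36.3, 188 ± 3.53 and 95.8 ± 8.23 CPM, and its RS against PAC difference of -0.09 did not pass (adjusted p = 0.58), while its ES against RS difference of -0.97 did (adjusted p = 0.00028).

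Most HORMAD partners in break formation and checkpoint were lower in RS than in PAC, as Hormad1 was. Of 15 tested of 16 listed (Mei4 was removed by the filter on low counts), 12 were lower and 2 higher in RS than in PAC by edgeR (median log2 difference -1.34), 6 were higher and 2 lower in ES than in RS (0.22), and 11 were lower and 1 higher in ES than in PAC (-1.37). Over all features, the shares were 34.2% lower and 38.2% higher in RS against PAC, 24.5% higher and 22.1% lower in ES against RS, and 33.7% lower and 30.6% higher in ES against PAC, and the counts of every list are to be read against them. Atr, the checkpoint kinase that acts on unsynapsed chromatin, was at 1040 ± 125 CPM in PAC, 178 ± 19.1 in RS and 331 ± 92.1 in ES (SD, n = 3; -2.55 in RS against PAC, adjusted p = 1.56e-06). H2ax, the histone phosphorylated at breaks and on unsynapsed chromatin, was at 219 ± 37.5, 11.4 ± 3.05 and 48.9 ± 9.19 CPM (-4.26, adjusted p = 1.25e-07). Spo11, which makes the meiotic DNA breaks, was at 161 ± 25.6, 71.6 ± 2.27 and 47.2 ± 4.28 CPM (-1.17, adjusted p = 2.52e-05), and fell again from RS to ES (-0.60, adjusted p = 0.00489). Of 8 telomere attachment genes, 7 were lower in RS than in PAC and 1 was not called (median -1.67), and all 8 were lower in ES than in PAC (-1.28). Among these, Spdya, the activator of CDK2 at telomeres, was at 387 ± 56.6, 209 ± 11.3 and 176 ± 23.5 CPM, Kash5 at 151 ± 22.7, 98.1 ± 4.01 and 65.9 ± 6.21, and Sun1 at 122 ± 2.39, 112 ± 7.61 and 82.4 ± 4.06. Kash5 and Sun1 encode the LINC complex that links telomeres to the cytoskeleton. Spdya and Kash5 fell in RS against PAC by 0.89 and 0.62 on the log2 scale (adjusted p = 0.000223 and 0.00203), and Sun1 did not pass (-0.13, adjusted p = 0.337).

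The axis cohesins are the rings on which the axis is built. Of 7 genes, 2 were lower and 1 higher in RS than in PAC by edgeR, no larger a share than over all features (median log2 difference -0.12), 1 was higher and 1 lower in ES than in RS (0.17), and 2 were lower and 5 were not called in ES against PAC (-0.01). Stag3, the meiotic cohesin subunit, was at 471 ± 146, 228 ± 19.1 and 256 ± 94.0 CPM (SD, n = 3) and was lower in RS than in PAC by edgeR (-1.05, adjusted p = 0.00728). The meiotic subunit Smc1b was at 234 ± 49.5, 215 ± 15.2 and 165 ± 39.4 CPM (-0.12, adjusted p = 0.576), and the general subunit Smc3 at 24.4 ± 12.2, 42.1 ± 3.21 and 36.6 ± 11 CPM (0.79, adjusted p = 0.0516). Of 10 genes for disassembly of the complex, 5 were lower and 2 higher in RS than in PAC (median -0.18), 4 were lower and 6 were not called in ES against RS (-0.42), and 7 were lower and 2 higher in ES than in PAC (-0.66). Skp1, a ubiquitin ligase subunit, was at 601 ± 75.1, 419 ± 14.1 and 284 ± 23.5 CPM, the kinase gene Aurka at 432 ± 96.8, 293 ± 9.54 and 183 ± 18.6, and the cohesin release factor gene Wapl at 402 ± 41.3, 314 ± 21.5 and 278 ± 32.2. All 3 were lower in RS than in PAC (-0.52, -0.56 and -0.36, adjusted p = 0.0038, 0.0088 and 0.0333).

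The other 5 HORMA domain genes act outside the meiotic axis, in the spindle checkpoint, in translesion synthesis and in autophagy. Of these, 3 were lower and 2 were not called in RS against PAC by edgeR (median log2 difference -0.92), 1 was higher and 2 were lower in ES than in RS (-0.29), and all 5 were lower in ES than in PAC (-0.86). Mad2l1, the spindle checkpoint gene, was highest in PAC and lowest in RS like Hormad1, at 16.7 ± 1.15 CPM in PAC, 1.51 ± 0.391 in RS and 4.78 ± 1.21 in ES (SD, n = 3; -3.47, adjusted p = 7.05e-07). Mad2l2 was at 114 ± 15.9, 60.4 ± 4.18 and 44.7 ± 4.03 CPM (-0.92, adjusted p = 0.000136), and Atg13 at 24.6 ± 2.93, 18.8 ± 1.25 and 15.4 ± 4.75 CPM (-0.39, adjusted p = 0.12). Lists are described by counts and medians only.

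**Figure D5:**
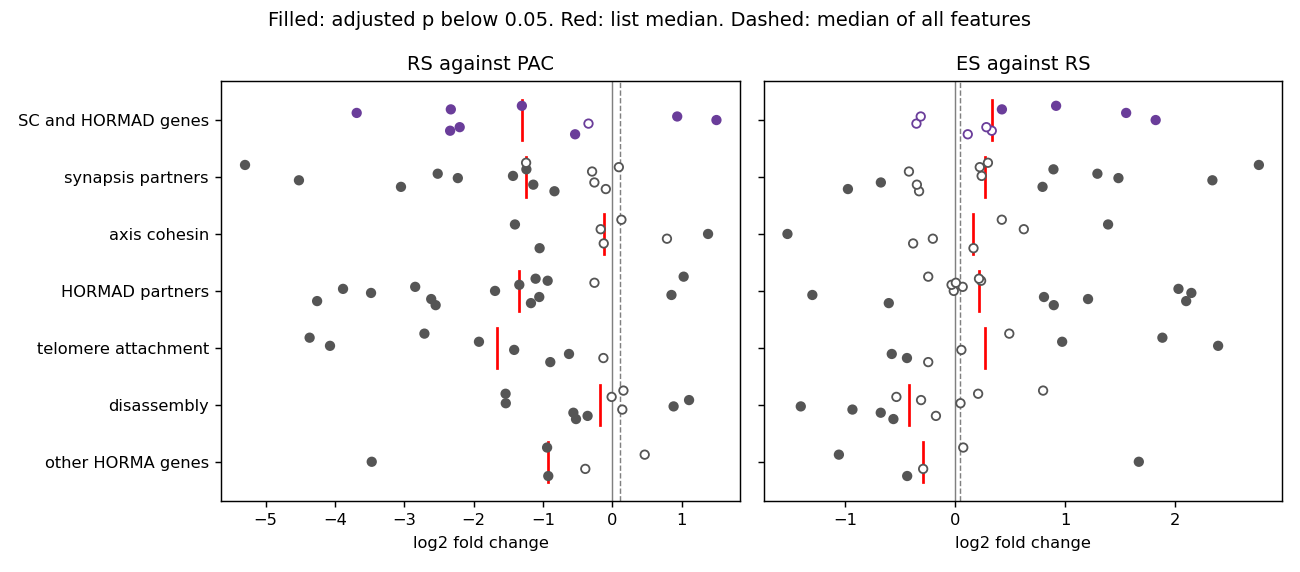
Log2 differences of the 9 members (top row) and of the genes in the 6 partner lists in RS against PAC and in ES against RS, 1 point per tested gene, filled for an adjusted p below 0.05 by edgeR, with a red line at each list's median and a dashed line at the median of all features. In RS against PAC the members' median is -1.30 and that of the axis cohesins -0.12.

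Profiles over the 9 libraries were compared by Pearson's r of log2 CPM with the members' mean standardised profile, as a description over 9 libraries that share 3 cell types. Each member is itself part of that mean, which raises its r. Hormad1 (r = 0.976), Tex12 (0.973), Sycp3 (0.959) and Sycp2 (0.923) followed that mean most closely, and Hormad2 (0.896), Sycp1 (0.813) and Syce1 (0.639) less so. Syce2 (-0.613) and Syce3 (-0.708) ran against it. Among 9422 other protein-coding genes with a mean of at least 5 CPM, the 5 most alike were Emc8 (r = 0.994), Kctd5 (0.994), Srsf9 (0.994), Zc3hc1 (0.993) and Tmem167 (0.993). Emc8 was at 17.7 ± 3 CPM in PAC, 7.5 ± 0.205 in RS and 9.54 ± 1.16 in ES (SD, n = 3), and Srsf9, a splicing factor gene, at 30.3 ± 5.48, 7.36 ± 0.299 and 11.6 ± 2.19 CPM. The 3 genes nearest to Syce2 itself, looked up after its values were seen, were Tcea1 (r = 0.999), Tbc1d20 (0.999) and Pim1 (0.999). Tcea1, a transcription elongation factor gene, was at 33.2 ± 5.34, 90.8 ± 2.48 and 350 ± 35 CPM, and the kinase gene Pim1 at 11.8 ± 1.58, 52.9 ± 5.61 and 254 ± 22.2 CPM.

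Some counts could hold reads of other genes. The 3′ part of Sycp3 overlaps Chpt1, on the opposite strand, over 3724 bases at chr10:88469513-88473236, and Chpt1 was at 28.8 ± 2.79 CPM in PAC, 63.4 ± 9.85 in RS and 265 ± 25.1 in ES (SD, n = 3), opposite to Sycp3. Syce2 overlaps Gcdh on the opposite strand over 1060 bases, and Gcdh was at 1.68 ± 0.656, 0.509 ± 0.174 and 2.64 ± 0.574 CPM, far below Syce2 in every cell type. Tex12 lies wholly within the span of Il18 on the opposite strand, which was at 0.343 to 0.431 CPM on average in the 3 cell types. The libraries marked strand, but whether counting used it is not given in the sources used here. Counts were not whole in all 9 libraries for Sycp1 and Hormad1 and in 6 for Sycp3, and were whole for the other 6 members. Related genes looked up after the members' values were seen were each lower than the member they are related to (Syce1, Sycp3 and Sycp2). Syce1l was at 12.3 ± 0.896, 10.3 ± 0.862 and 6.20 ± 0.942 CPM. The SYCP3-related Slxl1 was at 7.21 ± 0.961, 27.1 ± 1.24 and 10.7 ± 1.62 CPM, and Sycp2l at 0.441 ± 0.156, 0.0662 ± 0.0403 and 0.182 ± 0.178 CPM. Xlr and Slx, also looked up, were highest in RS, at means of 3.17 and 1.06 CPM.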

How the data were processed

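RNA was measured in 9 libraries, 3 each of PAC, RS and ES. The authors deposited estimated counts per feature, of which 18.8% are not whole, and FPKM values of the same 50493 features. HISAT2, StringTie and GRCm38.p6 are named, without versions, per the submitters' processing notes. No source used here gives the lengths behind the FPKM values. NCBI gene identifiers were matched to RefSeq symbols for 21726 of 21877 genes. Counts were rounded, filtered with filterByExpr (minimum count 10, which kept 26030 features and removed 24463) and scaled by TMM. Cell types were compared in edgeR 4.0.16 (R 4.3.3) by its quasi-likelihood test, two-sided and robust, fitted over all 9 libraries with a group term alone, with Benjamini-Hochberg adjustment over all features and a threshold of 0.05. SE is the log2 difference divided by the root of its F statistic. The fit was also run on simulated counts in which far fewer features changed than were called in these data. That run cannot show how the calls depend on scaling.

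Alternatives were DESeq2 1.42.0, upper-quartile factors, total counts alone, no filter, a filter of CPM above 1 in at least 3 libraries, only the 2 cell types compared, a replicate block, limma 3.58.1 on log2(FPKM + 1), on log2(FPKM + 0.1) and on log2(FPKM + 1) without a filter, and leaving out each library. A fit on protein-coding genes alone was added after seeing the data. All 9 members were named. In each partner list the 3 genes of highest mean CPM were named, and the most alike genes were the 5 highest in r. The members and lists were chosen with earlier results of these data known. Tables and figures were made with Python 3.11.15, pandas 2.3.3 and matplotlib 3.10.9.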

Additional observations from a re-analysis of the deposited data

How the results depend on the processing

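The calls of Sycp2, Sycp3, Tex12, Hormad1 and Hormad2 as lower and of Syce2 and Syce3 as higher in RS than in PAC, and of Syce2 and Tex12 as higher in ES than in RS, held in all 21 settings. Over single genes, 468 values kept direction and side of the threshold, 27 passed it, 38 missed it and 7 changed sign. The median of all features in RS against PAC moved from 0.11 with TMM to 0.42 with upper-quartile factors, and in ES against RS from 0.05 to -0.28 with total counts alone. In ES against RS, Sycp1 was at -0.20 with total counts, -0.19 with limma on log2(FPKM + 1), filtered or not, -0.19 on log2(FPKM + 0.1) and -0.03 with protein-coding genes alone, and Sycp3 was at -0.025 with total counts. Syce1 was at 0.051 in RS against PAC with protein-coding genes alone. The cause was not tested.

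For all features in ES against RS, 6374 higher calls became 4114 with log2(FPKM + 0.1) and 4225 with log2(FPKM + 1) without a filter, and 5752 lower calls became 8934 with log2(FPKM + 1), 8674 with log2(FPKM + 0.1) and 8699 without a filter. Members higher in ES than in PAC went from 2 to 1 with total counts and with each FPKM fit, and were 1 to 2 with a library left out. Members higher in ES than in RS went from 4 to 2 with each FPKM fit and were 3 to 6 with a library left out. Members lower in ES than in RS went from 0 to 2 with total counts and each FPKM fit, to 1 with protein-coding genes alone, and were 0 to 2 with a library left out. Among the members, the fewest counts were behind Tex12 in RS, at 1.84 to 2.86 CPM.

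Replicate numbers were not taken to pair the libraries: deviations of same-numbered libraries correlated at -0.04 to 0.273, not above 0.1 in every pair, and those of other libraries at -0.254 to 0.094. The 3 highest correlations were between same-numbered libraries, but not every library correlated best with its own number. With the replicate block, members lower in ES than in RS went from 0 to 1 and members higher from 4 to 3, and members lower in RS than in PAC from 6 to 7. By gene, Syce1 passed in RS against PAC (-0.33, adjusted p = 0.044 by edgeR) and in ES against RS (-0.36, adjusted p = 0.043), and Hormad1 missed in ES against RS (0.42, adjusted p = 0.0555).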

Other observations

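Replicates of a cell type differed with the length of the gene, looked up after seeing the data. In PAC, replicate 3 had the lowest level of 7 of the 9 members and the highest of Sycp1 and Sycp2, the longest by the length that count and FPKM imply (6.41 and 10.6 times Syce3). Over 12190 protein-coding genes, the median log2 difference of PAC replicate 3 from PAC replicate 1 was -0.25 in the shortest of 4 length classes of equal size, -0.16 and 0.01 in the next, and 0.36 in the longest. For the members it was -0.92 for Tex12, -0.63 for Syce3, 0.40 for Sycp1 and 0.39 for Sycp2. ES replicate 1 differed from ES replicate 2 by a median of 0.04 in the shortest class and -0.39 in the longest, and by 0.75 for Syce3 and -0.50 for Sycp2. Between cell types, the median log2 difference of RS from PAC was 0.06 in the shortest class and -0.84 in the longest. Sycp2, in the longest class, was at -2.34, and Tex12 and Sycp3, in the shortest, were at -3.69 and -2.20. Sycp1, in the third class, was at -0.54 beside a class median of -0.60, so its difference was no larger than that of its class. Hormad1 and Hormad2, in the next to shortest class, were at -2.33 and -1.30 beside -0.35, and Syce1, Syce2 and Syce3, in the shortest, at -0.34, 1.5 and 0.94. In ES against PAC the class medians were -0.20, -0.50, -0.64 and -0.56 from shortest to longest. Sycp1, at -0.42, fell less than its class, and Sycp2, at -2.00, fell more. In the shortest class, Tex12 was at -2.13, Sycp3 at -1.92, Syce1 at -0.69, Syce2 at 3.33 and Syce3 at 0.63. Hormad1 and Hormad2 were at -1.90 and -0.39. The part of length in the results was not tested.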
